A study of Mus musculus with 8 samples.

Results

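Txnip and 6 further genes of glucose sensing and sugar handling in hepatocytes were examined in bulk liver RNA-Seq data of mice with and without Smo in their hepatocytes. The genes were Txnip, Arrdc4, Mlxipl, Pklr, Gckr, Khk and Slc2a2, 7 of the 25239 gene symbols in the count files, taken by name. They were selected on these data, because Txnip had stood out among all genes in the comparison of Smo-KO with control livers, so the levels of the 7 genes in that comparison are given here as a description with no test. The livers came from adult male mice of C57Bl6/J background with floxed alleles (Smo fl/fl), so that Smo, the signal transducer of the Hedgehog pathway, can be cut out by Cre recombinase. All mice ate the CDA-HFD, which is choline-deficient, takes 60 kcal% from fat and induces steatohepatitis, for 6 weeks, and received a virus through the tail vein 1 week before sacrifice. The 4 Smo-KO mice were given AAV8-TBG-Cre, and the 4 control mice, labelled WT although they carry the same floxed alleles, were given AAV8-TBG-Luciferase. The TBG promoter is active in hepatocytes, whereas the RNA came from whole liver, in which fewer cells of a type and less RNA per cell cannot be told apart. Each library held between 8203299 and 9999732 reads on genes, so that 3 reads, the smallest count taken as a limit here, correspond to 0.296 to 0.365 CPM, counts scaled to a common library size.

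Mlxipl encodes ChREBP, a transcription factor that becomes active when sugar phosphates accumulate in hepatocytes and that binds DNA together with its partner Mlx. Its binding sites, carbohydrate response elements, are pairs of E-box-like hexamers set a few bases apart, and ChREBP and its relative MondoA (Mlxip) act through them on genes of glycolysis, fructose use and lipid synthesis. Txnip and its relative Arrdc4 encode alpha-arrestins that lower glucose uptake, and Txnip protein also binds thioredoxin. Pklr encodes the pyruvate kinase of liver, Slc2a2 the glucose transporter GLUT2, Gckr a protein that regulates glucose phosphorylation, and Khk ketohexokinase, which phosphorylates fructose.

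RefSeq (GRCm38.p6) has promoters for all 7 genes, 9 in all because Pklr and Mlxipl each have a pair of start sites. The letters searched were the E-box CACGTG and a pair of looser hexamers CACGNG on 1 strand with 5 bases between them. Both strands were searched in 300-base windows from 250 bases before to 50 after each start. The pair is 1 arrangement of such hexamers, and which promoters hold it depends on that choice. An E-box also counts as a looser hexamer. The E-box was in 3 of the 7 genes, Arrdc4, Khk and Mlxipl, and in 7.15% of the 32851 promoters in the table. The pair was in Txnip alone of the 7 genes and in 16 of all promoters (0.0487%). When either hexamer was allowed to be in the other orientation, a choice added after the data were seen, Pklr also held a pair at its downstream start site, as did 27 promoters in all (0.0822%). Gckr and Slc2a2 held none of these letters in these windows, which says nothing on their control. The Txnip sequence is printed as the 250 bases before its start site (chr3:96557707-96557956, plus strand), since it is the gene whose level differs most, with capitals marking the paired hexamers at 85 to 69 bases before the start (chr3:96557872-96557888). Part of this stretch is also exon of Gm15441, a noncoding gene on the other strand.

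Txnip: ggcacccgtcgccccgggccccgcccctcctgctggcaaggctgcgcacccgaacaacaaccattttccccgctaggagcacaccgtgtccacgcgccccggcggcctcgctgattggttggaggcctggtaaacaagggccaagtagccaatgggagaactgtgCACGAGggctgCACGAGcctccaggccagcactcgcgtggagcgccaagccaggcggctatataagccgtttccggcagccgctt

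The other matches are printed as 60 bases each, 5′ to 3′ on the strand of the gene, so that their spacing can be compared with that of Txnip. Capitals mark the hexamers of the pair in Pklr (chr3:89136431-89136490, inside an intron of the Pklr transcript that begins upstream) and the E-box in Mlxipl (chr5:135089765-135089824) and Arrdc4 (chr7:68749399-68749458, minus strand), both in stretches with no GENCODE M21 gene. The E-box of Khk lies in the 5′ UTR of a longer Khk transcript and is not printed.
Pklr: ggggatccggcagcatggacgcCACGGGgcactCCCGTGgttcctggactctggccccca
Mlxipl: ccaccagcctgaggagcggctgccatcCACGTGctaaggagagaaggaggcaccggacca
Arrdc4: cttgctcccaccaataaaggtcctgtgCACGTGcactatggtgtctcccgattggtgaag

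A match is a string of letters in the reference genome; binding was not measured in these livers. The Pklr match begins 170 bases and ends 154 bases before its start, and the E-box lies 98 to 93 bases before the start of Mlxipl, 193 to 188 before that of Arrdc4 and 71 to 66 before that of Khk.

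Smo itself was lower in every Smo-KO liver. The control livers held 8.16, 8.48, 8.73 and 8.20 CPM and the Smo-KO livers 5.66, 3.92, 4.26 and 4.37 CPM, with no overlap. Its log2 fold change was -0.88 (SE 0.16, edgeR quasi-likelihood test, adjusted p = 0.0957), on 72 to 88 reads per control liver and 35 to 55 per Smo-KO liver. Smo-KO liver 1 kept the most Smo, and without it the log2 fold change was -1.0 (adjusted p = 0.0266). The reads were counted over the gene as a whole, in whole liver, and so include reads from cells that the vector does not target and from exons outside the floxed stretch.

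Mlxipl, the sensor, was at 206, 183, 105 and 141 CPM in control livers 1 to 4 and at 238, 232, 235 and 245 CPM in Smo-KO livers 1 to 4. All 4 Smo-KO livers were above the highest control liver and lay close together. The mean was 159 ± 44.6 CPM in control and 237 ± 5.30 CPM in Smo-KO livers (SD, n = 4 each). This is a log2 fold change of 0.58 (SE 0.16). The coefficient of variation was 28.1% among control livers and 2.23% among Smo-KO livers, the smallest of the 7 genes in either group. On 1927 to 2311 reads per Smo-KO liver, counting error alone is of similar size to that 2.23%. Each value rests on 4 livers, and the difference in spread was not tested. Without control liver 3, the lowest, the log2 fold change of Mlxipl was 0.43, and without control liver 1, the highest, it was 0.73.

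Txnip, the gene that led to this choice, was at 115, 86.6, 81.5 and 102 CPM in control livers 1 to 4 and at 162, 207, 216 and 154 CPM in Smo-KO livers 1 to 4. The groups did not overlap: the lowest Smo-KO liver was above the highest control liver. The mean was 96.2 ± 15.2 CPM in control and 185 ± 31.2 CPM in Smo-KO livers (SD, n = 4 each), 192% of control, with a log2 fold change of 0.94 (SE 0.14). Among all 12977 genes tested, Txnip was at rank 54 of log2 fold change, counted from the highest, and Mlxipl at rank 271. Among the 2025 genes with a mean of at least 100 CPM, the ranks were 3 and 18. Txnip is in that set only through its Smo-KO livers, as its control mean of 96.2 CPM lies below 100 CPM. The fold change of Txnip is the value on which it was selected, so nothing is read from these ranks. Mlxipl differed less among the 4 Smo-KO livers than Txnip, with a coefficient of variation of 2.23% against 16.9%.

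**Figure D1:**
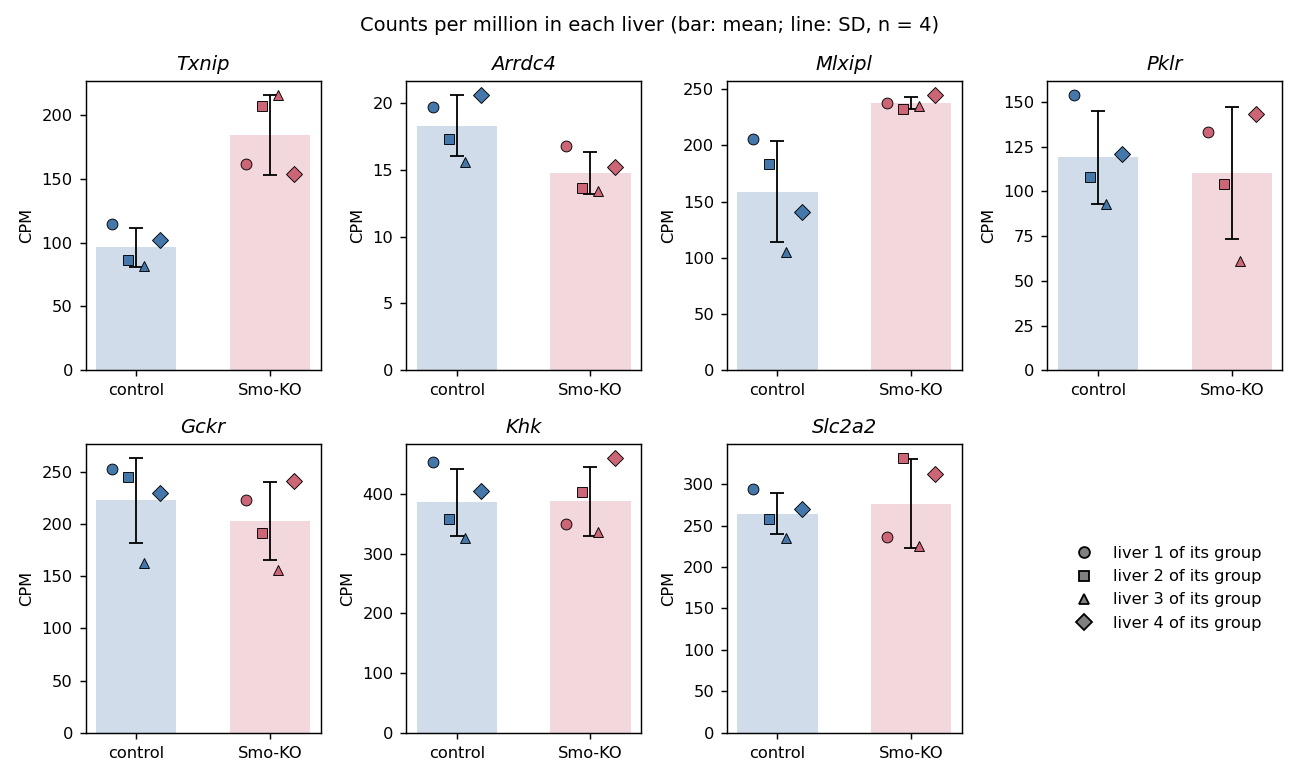
CPM (y axis, from 0) of each of the 7 genes in 4 control livers (blue) and 4 Smo-KO livers (red); bars are means, lines are SD and the symbols give the liver's number within its group. Txnip and Mlxipl have no overlap between the groups; the other 5 genes overlap.

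Arrdc4, the arrestin closest to Txnip and like it a known target of ChREBP and MondoA, did not follow it. Its levels were 19.7, 17.3, 15.6 and 20.6 CPM in control livers and 16.8, 13.6, 13.4 and 15.2 CPM in Smo-KO livers. In Smo-KO, 3 livers were below every control liver, and Smo-KO liver 1 was inside the control range. The mean was 18.3 ± 2.30 CPM in control and 14.8 ± 1.58 CPM in Smo-KO livers, with a log2 fold change of -0.31 (SE 0.13). Arrdc4 rested on 157 to 209 reads per control liver and 110 to 163 per Smo-KO liver, against 821 to 1029 and 1448 to 1898 for Txnip.

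Pklr, the pyruvate kinase that ChREBP controls in liver, was at 154, 108, 92.9 and 121 CPM in control livers and at 133, 104, 61.0 and 143 CPM in Smo-KO livers. The groups overlapped, and Smo-KO liver 3 was lowest of the 8. Its log2 fold change was -0.11 (SE 0.22), the largest standard error of the 7 genes, and it was 0.09 without Smo-KO liver 3. It was 0.04 without control liver 1 and -0.26 without Smo-KO liver 4, so the sign depends on which livers are kept.

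The genes of sugar uptake and phosphorylation were at close levels in the 2 groups. Slc2a2 was at 294, 258, 235 and 270 CPM in control livers and at 236, 332, 225 and 312 CPM in Smo-KO livers, with a log2 fold change of 0.06 (SE 0.13). The Smo-KO livers were spread on both sides of the control range, with livers 2 and 4 above it and liver 3 below it. Gckr was at 253, 245, 163 and 230 CPM in control livers and at 223, 191, 156 and 241 CPM in Smo-KO livers, with a log2 fold change of -0.13 (SE 0.15). Liver 3 was the low one in both groups, and the ranges overlapped over most of their length. Khk was at 454, 358, 326 and 405 CPM in control livers and at 349, 404, 336 and 461 CPM in Smo-KO livers, with a log2 fold change of 0.01 (SE 0.13). Its means, 386 ± 55.8 CPM and 387 ± 57.0 CPM, differed by far less than the spread between livers of 1 group. On leaving out 1 liver at a time, the log2 fold change of Khk lay between -0.09 and 0.09, that of Slc2a2 between -0.04 and 0.15 and that of Gckr between -0.25 and -0.03.

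In edgeR's quasi-likelihood fit of 12977 genes, 0 genes had an adjusted p under 0.05 (0% of those tested), 1797 had an unadjusted p under 0.05, and DESeq2 called 167 genes. Without Smo-KO liver 1 edgeR called 78, without control liver 1 it called 5 and without Smo-KO liver 3 it called 4. All 7 genes passed the filter on low counts in that fit. Of the 7, 2 had groups that did not overlap, both higher in Smo-KO, where 3.03% of all genes tested were higher without overlap and 4.34% lower without overlap. Since the genes were selected on this contrast, nothing is read from that count. Of the 7 genes, 4 had log2 fold changes above 0 and 3 below 0, with a median of 0.01, beside 6470 and 6507 of all genes tested and a median of 0.00.

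**Figure D2:**
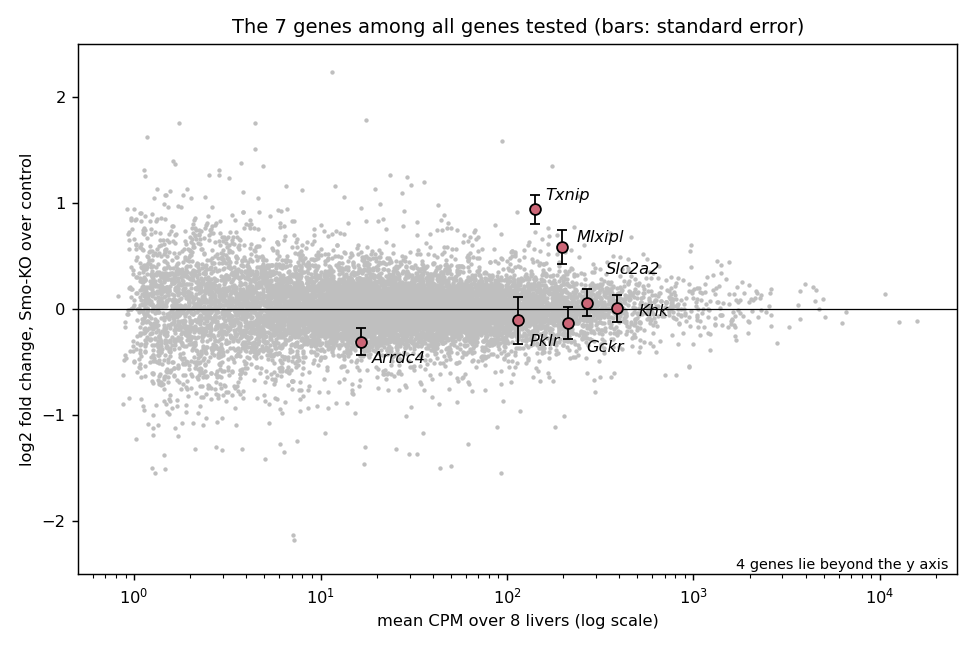
Log2 fold change of Smo-KO over control livers (y axis) against mean CPM over the 8 livers (x axis, log scale) for all genes tested (gray); the 7 genes are red points with their standard errors. Txnip and Mlxipl lie above most genes of their level, and the other 5 lie between -0.31 and 0.06.

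Divided by the length of the longest GENCODE M21 transcript in kilobases, the 7 genes can be set in order of level. In control livers Khk was highest at 244 CPM per kb, then Gckr at 98.0, then Slc2a2, Mlxipl, Pklr and Txnip at 47.5, 43.8, 41.1 and 34.0, and Arrdc4 lowest at 4.69 CPM per kb. The ranges of neighbours among the 4 middle genes overlapped, so their order is not settled by 4 livers, while Khk, Gckr and Arrdc4 stood apart from their neighbours. In Smo-KO livers Khk was at 245 CPM per kb and Gckr at 89.3, followed by Mlxipl at 65.5, Txnip at 65.4, Slc2a2 at 49.6 and Pklr at 38.1, with overlap between neighbours among these 4, and Arrdc4 at 3.78. By its mean, Txnip was at place 6 of level per kb in control livers and at place 4 in Smo-KO livers. Its range overlapped with that of Pklr in control and with those of Mlxipl and Slc2a2 in Smo-KO livers, so neither place is settled.

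The order of livers within a group was shared in part across these genes, more so among control than among Smo-KO livers. Control liver 3 was lowest among control livers in all 7 genes, and control liver 1 was highest in 6 of them, Arrdc4 being highest in control liver 4. Smo-KO liver 3 was lowest among Smo-KO livers in 5 genes, Arrdc4, Pklr, Gckr, Khk and Slc2a2, and Smo-KO liver 4 was highest in 4 genes. Smo-KO liver 4 was, however, the lowest for Txnip, and Smo-KO liver 2 the lowest for Mlxipl. Txnip as counted was highest in Smo-KO liver 3, at 216 CPM. With the CPM of the antisense gene Gm15441 taken off, that liver was at 160 CPM, beside 160 in liver 1, 202 in liver 2 and 150 in liver 4. It is not known how many Gm15441 reads, if any, the Txnip count holds, so the rank of that liver is not settled. Smo-KO liver 3 also had the fewest reads on genes, 8203299, and the part of that liver's depth in these values was not tested.

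**Figure D3:**
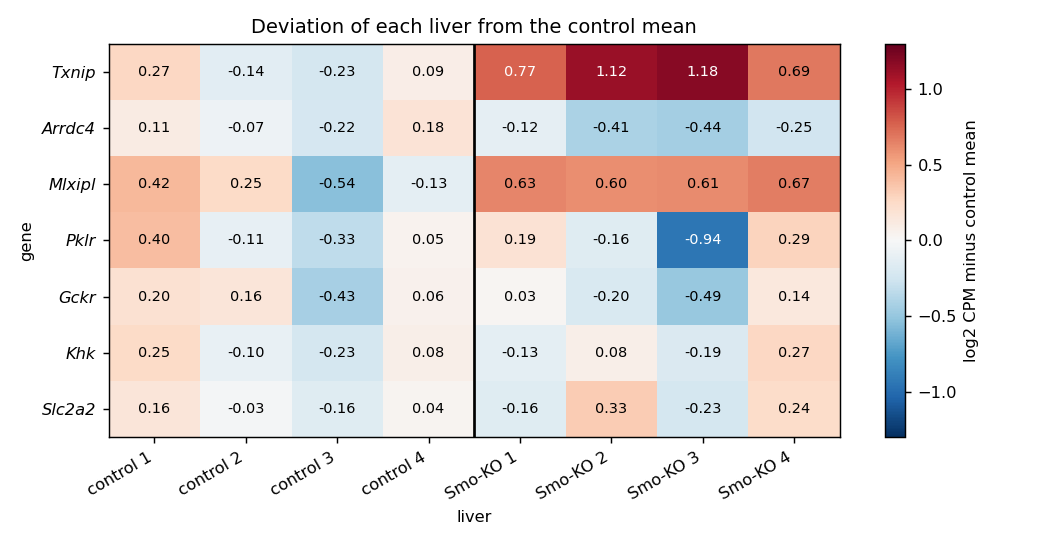
Log2 CPM of each liver minus the mean of the 4 control livers, for the 7 genes (rows) and 8 livers (columns), with red above and blue below that mean. Txnip and Mlxipl are above it in all 4 Smo-KO livers, and Smo-KO liver 3 has the lowest Pklr (-0.94) beside the highest Txnip as counted (1.18). That liver does not keep this rank with the CPM of Gm15441 taken off, which is a description and not a correction.

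Txnip shares part of its locus with Gm15441, an antisense gene on the minus strand (chr3:96555765-96566801; Txnip is chr3:96557957-96561883 on the plus strand, both GENCODE M21 on GRCm38). Of the 3123 exon bases of Txnip, 606 (19.4%) are also exon bases of Gm15441, and whether the counting used strand is not given in the sources used here. The files set ambiguous reads aside, so reads in those stretches may have been left out of both counts. How they were counted cannot be told here. Gm15441 had 27, 20, 33 and 23 reads in control livers and 18, 48, 460 and 36 reads in Smo-KO livers 1 to 4. Smo-KO liver 3 thus held far more Gm15441 reads than the other 7 livers, equal to 25.9% of its Txnip reads, where the other livers had 1.14% to 4.02%. With the CPM of Gm15441 taken off that of Txnip in each liver, Txnip was at 112, 84.5, 78.2 and 99.4 CPM in control livers. In Smo-KO livers it was then at 160, 202, 160 and 150 CPM, still without overlap, and the log2 ratio of the means was 0.85. Reads counted on Gm15441 need not be part of the Txnip count, so this subtraction is a description and not a correction. Without Smo-KO liver 3 the log2 fold change of Txnip was 0.86. Apart from Gm15441, the nearest genes on either side, Hjv and Polr3gl, had log2 fold changes of 0.09 (SE 0.11) and 0.19 (SE 0.12), and both had overlapping groups. Gm15441 was looked at because it neighbours Txnip, and its values were singled out after they were seen.

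**Figure D4:**
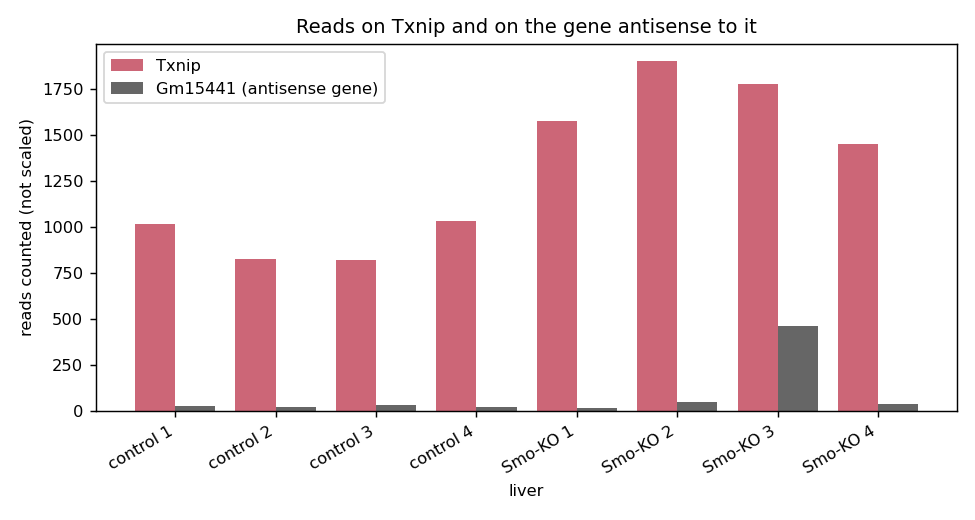
Reads counted on Txnip (red) and on Gm15441, the gene antisense to it (gray), in each of the 8 livers (y axis, reads, not scaled, from 0). Gm15441 has 460 reads in Smo-KO liver 3 and at most 48 in the others, and Txnip has more reads in each Smo-KO liver than in any control liver.

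Txnip as counted, with no CPM of Gm15441 taken off, was compared with other genes over the 8 livers. Those most like it in course were Por, Themis, Bnip3, Wee1 and Slc22a5. Likeness was measured as the root mean square difference of log2 CPM, each gene centred on its own mean, over 9334 genes with a mean of at least 10 CPM, and includes the difference between the groups. It was 0.171 for Por (cytochrome P450 oxidoreductase), 0.186 for Themis, 0.190 for Bnip3, 0.193 for Wee1 (a kinase that holds back mitosis) and 0.195 for Slc22a5 (a carnitine transporter), beside a median of 0.534. Of the other 6 genes, Mlxipl was the closest to Txnip at 0.304, rank 62, and Gckr at 0.635 (rank 8031), Arrdc4 at 0.668 (rank 8468) and Pklr at 0.729 (rank 8942) were farther from it than the median gene. Slc2a2 at 0.513 and Khk at 0.525 lay near the median. The relative of Txnip by protein family, Arrdc4, and the other gene with paired hexamers, Pklr, were among the genes farthest from Txnip. The measure includes the group difference on which Txnip was selected. These ranks thus restate that difference in part, and nothing further is read from them.

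The other genes of the pathway were taken from 8 lists, 103 genes with the 7 left out, of which 100 were tested. By edgeR 0 had an adjusted p under 0.05, and 8 were higher and 11 lower at an unadjusted p under 0.05, beside 6.70% higher and 7.15% lower of all genes tested. Their median log2 fold change was -0.08, with 38 above and 62 below 0. The lists were chosen with results of these data known, and counts are given as they stand, with no test of a list.

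Of the other targets of ChREBP and MondoA, 6 were lower and 1 was higher at an unadjusted p under 0.05, 31.8% of the list beside 13.8% of all genes tested. Of 22 tested, 3 had log2 fold changes above 0 and 19 below, with a median of -0.22, 6 of the 19 by less than their standard error, and 0 had an adjusted p under 0.05 by edgeR. The higher one was Klf10, a glucose-responsive repressor, with a log2 fold change of 0.39 (SE 0.15). Acly, which makes acetyl-CoA for lipid synthesis, was at 113, 113, 120 and 102 CPM in control and 84.3, 86.4, 68.2 and 85.6 CPM in Smo-KO livers, with no overlap and a log2 fold change of -0.46 (SE 0.10, edgeR adjusted p = 0.116, DESeq2 adjusted p = 0.00917). Fasn, the fatty acid synthase, was at 318, 245, 227 and 227 CPM in control and 199, 212, 136 and 190 CPM in Smo-KO livers, again with no overlap and a log2 fold change of -0.46 (SE 0.14). Both lipid synthesis genes were lowest in Smo-KO liver 3. Pnpla3, a lipid droplet protein, had a log2 fold change of -1.20 (SE 0.26) on at most 26 reads per liver. Fgf21, a liver hormone of fasting and sugar intake, was at 115, 31.5, 99.9 and 49.2 CPM in control and 64.4, 13.3, 15.7 and 12 CPM in Smo-KO livers, with a log2 fold change of -1.48 (SE 0.52), and of -2.43 without Smo-KO liver 1 (edgeR adjusted p = 0.0266). Tkt (-0.22) and Gpd1 (-0.33) completed the 6. Of the 22, 4 were lower without overlap between the groups, Acly, Fasn, Gpd1 and Pnpla3, beside 4.34% of all genes tested. G6pc, glucose-6-phosphatase, differed by -0.22 (SE 0.25) in log2 fold change, and by between -0.39 and -0.05 on leaving out 1 liver (-0.05 without control liver 1 or Smo-KO liver 3). The unadjusted call of Tkt was lost in 9 of 14 alternatives, that of Klf10 in 3 and that of Gpd1 in 2.

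Among partners and regulators of the sensor, Mlx, which ChREBP needs to bind DNA, had a log2 fold change of -0.18 (SE 0.10) and Mlxip, which encodes MondoA, 0.09 (SE 0.13), beside 0.58 for Mlxipl. That of Mlxip was -0.01 without Smo-KO liver 1. Of the 11 regulators tested 1 (9.09%, beside 13.8% of all genes) was higher at an unadjusted p under 0.05, Ogt, whose enzyme attaches N-acetylglucosamine to proteins, ChREBP among them, with a log2 fold change of 0.28 (SE 0.10), and none was lower, a call that was lost without Smo-KO liver 4. Of 5 other arrestins tested, none passed that threshold: Arrdc2 was at 0.37 (SE 0.18) and Arrdc3 at -0.23 (SE 0.19) in log2 fold change, and Arrdc5 was listed at 0 reads. Arrdc2 was at 0.21 without control liver 3, 0.51 without control liver 1 and 0.49 without control liver 4. Its unadjusted p by edgeR was 0.0182 without control liver 1 and 0.0263 without control liver 4. It was 0.0364 with no filter on low counts, 0.00875 with same-numbered livers as blocks, and above 0.05 in the other alternatives. Arrdc3 was at -0.08 without Smo-KO liver 3, -0.10 without control liver 1 and -0.37 without Smo-KO liver 1. Of the 13 genes of the thioredoxin system, none was higher and 2 were lower at an unadjusted p under 0.05 (15.4%, near the 13.8% of all genes), Txnrd1, a thioredoxin reductase (-0.35, SE 0.09, DESeq2 adjusted p = 0.0271), and Srxn1, sulfiredoxin (-0.41, SE 0.14). Txn1, the thioredoxin that Txnip binds, had a log2 fold change of 0.14 (SE 0.10).

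Of 24 genes of glucose uptake and glycolysis tested, 6 had log2 fold changes above and 18 below 0, with a median of -0.09, and Pgam1, a phosphoglycerate mutase, was the 1 gene with an unadjusted p under 0.05, at -0.31 (SE 0.09), which is 4.17% of the list beside 13.8% of all genes tested. Beside Khk, none of 6 genes of the fructose and polyol pathway tested had an unadjusted p under 0.05. Tkfc, which acts further down the fructose pathway than Khk, was at -0.24 (SE 0.12), or -0.13 without control liver 1, and Akr1b3 was listed at 0. In gluconeogenesis and glycogen, Gys2, the liver glycogen synthase (0.40, SE 0.17), and Ppp1r3g (1.37, SE 0.54, on 2 to 31 reads per liver) were higher and Ppp1r3c (-0.71, SE 0.26) lower at an unadjusted p under 0.05, 21.4% of 14 tested beside 13.8% of all genes. Leaving out 1 liver ended the unadjusted call in 5 cases for Gys2 and in 5 for Ppp1r3g, DESeq2 ended that of Ppp1r3c, and the log2 fold change was 2.31 for Ppp1r3g without control liver 1 and -0.46 for Ppp1r3c without Smo-KO liver 3. Both Ppp1r3 genes encode subunits that bring a phosphatase to glycogen. Pck1, a gluconeogenesis enzyme that fasting induces, ranged from 652 to 1760 CPM in control and 635 to 1470 CPM in Smo-KO livers, with a log2 fold change of -0.17 (SE 0.30). Its sign depended on control liver 1, without which it was 0.13, and it was -0.42 without Smo-KO liver 2 and -0.01 without Smo-KO liver 3.

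Genes of the response to fasting and insulin went both ways. Of 13 tested, 4 were higher and 1 lower at an unadjusted p under 0.05, 38.5% of the list beside 13.8% of all genes tested (6.70% higher and 7.15% lower). The higher ones were Creb3l3, a fasting transcription factor (0.36, SE 0.10, no overlap, DESeq2 adjusted p = 0.0313), Angptl4, an inhibitor of lipoprotein lipase (0.49, SE 0.16), Pdk4, which restrains pyruvate oxidation (0.84, SE 0.31), and Cpt1a, the entry of fatty acids into mitochondria (0.24, SE 0.09), and the lower one was Insig2 (-0.60, SE 0.19), all as log2 fold changes. Pdk4 was highest in Smo-KO liver 3, at 97.7 CPM, and without that liver its log2 fold change was 0.46, with an unadjusted p by edgeR of 0.0876. The call was also lost without control liver 1 (0.69, p by edgeR 0.0556). Leaving out 1 liver also ended the unadjusted call of Cpt1a in 3 cases.

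**Figure D5:**
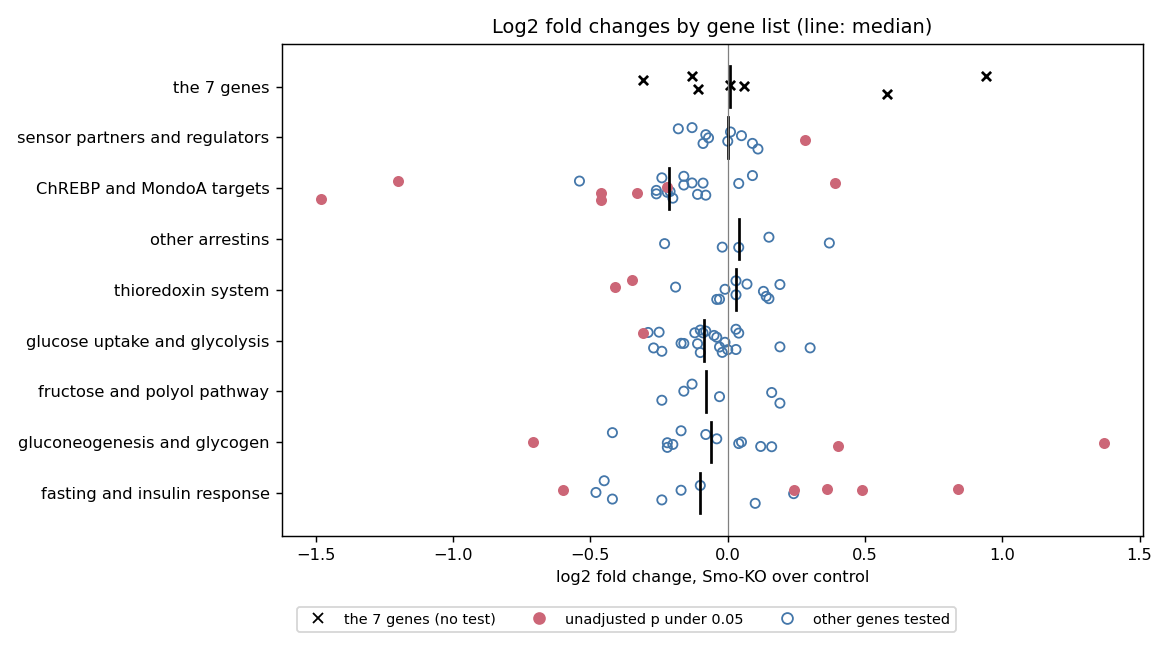
Log2 fold changes of Smo-KO over control livers (x axis) for the 7 genes (crosses, no test) and for the genes of 8 lists (circles, filled red where the unadjusted edgeR p is under 0.05); vertical lines are medians. The targets of ChREBP and MondoA have a median of -0.22, while Txnip and Mlxipl are at 0.94 and 0.58.

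The hepatocyte label was checked with 6 markers, Alb, Apoa1, Ttr, Cps1, Asgr1 and Fgb, all of which were present: their summed level was 26800 ± 1860 CPM in control and 25800 ± 711 CPM in Smo-KO livers (mean ± SD, n = 4), for which a two-sided exact permutation test gave p = 0.429 (adjusted p = 0.724 over 12 measures), with Alb the most abundant at 16600 and 15300 CPM. Set over the reads of these markers in place of the whole library, a choice added after the data were seen, the log2 ratio of the group means was 1.00 for Txnip, 0.64 for Mlxipl, -0.26 for Arrdc4, -0.04 for Pklr, -0.08 for Gckr, 0.07 for Khk and 0.12 for Slc2a2. Txnip was then at 3.93, 3.45, 3.17 and 3.74 reads per 1000 hepatocyte marker reads in control livers and at 6.09, 7.95, 8.39 and 6.18 in Smo-KO livers. Markers of T and NK lymphocytes moved with the groups: their summed level was 63.0, 68.4, 57.6 and 79.2 CPM in control and 28.9, 27.0, 45.4 and 43.3 CPM in Smo-KO livers (exact permutation test, two-sided p = 0.0286, the smallest that 70 assignments allow, adjusted p = 0.343 over 12 measures). Of 10 of these markers found, 8 were tested. All 8 were lower in Smo-KO at an unadjusted p under 0.05 by edgeR, beside 7.15% of all genes tested. Nkg7 was the most abundant at 14.4 and 7.58 CPM. Themis, a T cell gene outside this list, went the other way, with 11.2 CPM in control and 21.8 CPM in Smo-KO livers. It was named above for its likeness to Txnip, which includes the group difference. The part of these markers in the levels of Txnip and Mlxipl was not tested. The summed levels of B lymphocyte, macrophage, neutrophil, endothelial, stellate, cholangiocyte and erythroid markers overlapped between the groups, with exact permutation p of 0.286 or more. Single markers among them, and 1 of the 6 hepatocyte markers, had an unadjusted p under 0.05 by edgeR: of 7 macrophage markers Trem2 (0.75) and Lyz2 (0.31) were higher, of 6 endothelial markers, all with log2 fold changes below 0, Pecam1 was lower (-0.50), and so were Col1a1 (-0.36) among the stellate and Cps1 (-0.33) among the hepatocyte markers, in log2 fold change. Their part in the levels of Txnip and Mlxipl was not tested, and Ly6g, Hbb-bs and Hba-a1 were listed at 0.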

How the data were processed

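Total RNA of 8 livers was sequenced with a NEBNext Ultra kit, which is not described as stranded. The authors deposited raw counts, 1 whole-number count per gene symbol and liver; the submitters' processing notes name fastp, STAR 2.7.5, featureCounts 2.0.1 and GRCm38, while the end entries of the files have the form that htseq-count writes. Annotation and strand setting are not given in the sources used here. Reads on no feature (8.33% ± 0.742 in control and 9.22% ± 0.331 in Smo-KO livers) and ambiguous reads (2.54% and 2.51%) were left out. From the counts, edgeR 4.0.16 in R 4.3.3 was used (filterByExpr, TMM, estimateDisp, glmQLFit, glmQLFTest, genotype only, Benjamini-Hochberg over 12977 genes). CPM are scaled by TMM; log2 CPM have a prior count of 2; depth covers counting error only. Single values were compared with exact permutation tests over 70 assignments. p-values measure the spread between the 4 livers of a group, 1 per mouse. The 7 genes and all lists were chosen with earlier results of these data known. Genes named were these 7, Smo, up to 4 genes per list with the smallest unadjusted p, genes with a textbook place, the 5 genes most like Txnip, and the neighbours of Txnip; Klf10, Gpd1, Tkt and Cpt1a, outside that rule, completed counts and were named after values were seen. Results of some single genes are not reported here, and counts over lists still include them. Alternatives were RLE factors, library totals, DESeq2 1.42.0, other filters, a replicate block and each liver left out. The edgeR procedure was tested on simulated data with 200 genes changed by a factor of 2. At an adjusted p under 0.05 it recovered 85.3% of them, and 7.24% of its calls were false (means of 3 runs), above the nominal rate. No 2 livers of a group were copies (chi-square per degree of freedom 7.76 to 17.5). Of the symbols, 99.2% matched RefSeq GRCm38.p6, which gave the promoters; exons and lengths came from GENCODE M21. The age of these CDA-HFD-fed mice is given only as adult.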

Additional observations from a re-analysis of the deposited data

Results flagged for a closer look

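In 7 of 104 groups of 4 values examined, 1 liver lay far from the other 3 of its group, where chance alone gives about 1 in 20 groups (5.2 here). None of the 7 genes had such a liver. Gm15441, the gene antisense to Txnip, was at 56.0 CPM in Smo-KO liver 3 and at 1.85 to 5.23 CPM in the other Smo-KO livers. The same liver had 8203299 reads on genes, fewer than the others of its group, and 68.2 CPM of Acly. Fgf21 was at 64.4 CPM and Gys2 at 198 CPM in Smo-KO liver 1. Tkfc was at 518 CPM in control liver 1, and the summed B lymphocyte markers were at 7.33 CPM in control liver 2.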

How the results depend on the processing

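How many genes passed an adjusted p of 0.05 varied with the settings: 0 as reported, 167 with DESeq2, 61 with no filter on low counts, 8 with a replicate block, and 0 to 78 on leaving out 1 liver. The cause was not tested. Same-numbered livers had correlated deviations of 0.104, 0.187, 0.0611 and 0.113, all above 0. Differently numbered livers ranged from -0.205 (control liver 2 with Smo-KO liver 4) to 0.157 (control liver 1 with Smo-KO liver 4). Not every liver correlated best with its own number. The labels do not say whether the numbers mark pairs or a shared batch, and this was not settled here. The main fit does not pair the mice, and apart from Arrdc2 the blocked fit stands here only. On leaving out 1 liver, the log2 fold change of Txnip lay between 0.86 and 1.04, that of Mlxipl between 0.43 and 0.73, that of Arrdc4 between -0.37 and -0.24, that of Pklr between -0.26 and 0.09 and that of Smo between -1.0 and -0.81. Pklr, Khk and Slc2a2 changed sign in 2, 4 and 1 of their 15 alternatives, by less than 1 SD between livers, and Mlxip and Pck1 in 1 of 14 each. The adjusted p of Smo ranged from 0.00646 with DESeq2 to 0.219, and was also under 0.05 with no filter (0.0385) and without Smo-KO liver 1. Genes with an unadjusted p under 0.05 numbered 1244 to 2332 over all alternatives, and 15 to 25 of the pathway genes. For the 33 pathway genes that the rule on named genes gives, not all of which are described above and which leave out Klf10, Gpd1, Tkt and Cpt1a, 456 of 460 alternative values were on the same side of the adjusted threshold, which 0 of them passed as reported, and the other 4 were Acly, Txnrd1 and Creb3l3 with DESeq2 and Fgf21 without Smo-KO liver 1. Of the 19 unadjusted calls among pathway genes, 10 held in every alternative and 9 were lost in at least 1. Pnpla3 and Ppp1r3g rest on few reads, and each comparison on 4 livers per group.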
